A study of Mus musculus with 4 samples.

Results

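Aipl1, Unc119, Pde6d, Arl3, Reep6 and Rpgr are 6 of the 32285 genes in the count matrices of a spatial study of the mouse eye. They were chosen by symbol, as genes whose products chaperone lipid-modified proteins or move proteins within photoreceptors. Each symbol matched 1 row. Aipl1, Unc119 and Reep6 were taken as photoreceptor-restricted members and Pde6d, Arl3 and Rpgr as broadly expressed members, from general knowledge of these genes. The members were chosen with earlier results of these data known.

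Photoreceptors make very large amounts of phototransduction protein in the inner segment and send it through a narrow connecting cilium to the outer segment. Several of these proteins, among them subunits of transducin and rod phosphodiesterase, carry a prenyl or fatty acyl group that must be shielded from water on the way. AIPL1 is the chaperone needed to assemble rod phosphodiesterase, UNC119 binds the acylated transducin alpha subunit, PDE6D binds prenylated cargo, and the small GTPase ARL3 releases cargo from UNC119 and PDE6D. REEP6 is a membrane protein of the endoplasmic reticulum that shapes it and serves vesicle traffic in rods, and RPGR is a protein of the connecting cilium.

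Fresh-frozen posterior eyes of C57BL/6J mice were cryosectioned onto 4 Visium capture frames, on which each barcoded spot takes up RNA from a small patch of tissue that can hold several cells. The labels give all 4 frames 1 treatment, Naive+AAV2/2, and call the molecule nuclear RNA. The design text names vectors that express Wif1 from a CMV promoter in AAV2/2, CMV-Wif1-HA-IRES-GFP with a GFP reporter or CMV-Wif1-HA without one, besides CMV-IRES-GFP as control, and the groups Ctrl, WIF1-2w and WIF1-4w. No label ties a frame to one of these groups and a frame may hold sections of several, so no treatment was compared and every comparison is between regions of the same sections. The frames are the replicates, nothing states that they came from separate animals, and p-values therefore measure the spread between frames, which may be technical.

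The 4 frames held 1201, 1243, 1056 and 1103 spots over tissue, with 895894, 1066633, 885454 and 674029 unique molecular identifiers (UMIs, each 1 captured RNA molecule). Spots were placed in regions by 95 marker genes in 9 classes, none of them a member. The photoreceptor region held 1058 spots, the outer coat 758 (620 pigmented and 138 fibrous) and the inner retina 843 (214 inner nuclear and 629 ganglion), while 1648 of 4603 spots stayed unplaced. A region is named after its markers and is a mixture of cells. All 15 photoreceptor markers had UMIs in every frame of the photoreceptor region, where they summed to 61957 to 76310 CPM (UMIs scaled by all UMIs of the region in that frame). In the outer coat their sum was 15484 to 20271 CPM and in the inner retina 3146 to 6556 CPM, and none of the 15 was at 0 in either. RNA of photoreceptor markers was thus counted in every region, and its part in the members' levels there was not tested. Frames shared 220 to 824 spot barcodes, which mark positions on a slide and not cells.

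Promoter windows are shown because the members contrasted here include genes taken as restricted and genes taken as broad. They are the 250 bases before an annotated start site, from RefSeq on build GRCm38.p6, written 5′ to 3′ on the gene's own strand. Capitals mark GGATTA, the homeobox motif read by the photoreceptor factor CRX, which was searched on both strands (TAATCC on the other strand). The first window belongs to Aipl1, lies inside the gene's annotated span at chr11:72037510-72037759 on the minus strand, and holds the motif with its first base at position -53 from the start site. Unc119 has a window at its gene start, chr11:78343245-78343494 on the plus strand, and others inside the gene, of which chr11:78345334-78345583 holds the motif at -118 and is printed. The Arl3 window is cut to the 142 bases, chr19:46573183-46573324 on the minus strand, that do not overlap the neighbouring gene Sfxn2.
Aipl1: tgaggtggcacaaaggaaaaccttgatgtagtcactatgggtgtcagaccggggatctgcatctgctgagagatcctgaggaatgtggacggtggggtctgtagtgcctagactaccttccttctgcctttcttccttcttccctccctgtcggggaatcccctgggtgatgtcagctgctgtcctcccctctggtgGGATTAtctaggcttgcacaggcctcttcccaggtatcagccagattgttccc
Unc119, gene start: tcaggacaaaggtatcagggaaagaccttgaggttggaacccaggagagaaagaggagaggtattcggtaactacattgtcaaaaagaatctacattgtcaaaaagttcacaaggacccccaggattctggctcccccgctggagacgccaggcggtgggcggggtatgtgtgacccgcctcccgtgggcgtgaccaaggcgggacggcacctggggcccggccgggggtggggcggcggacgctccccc
Unc119, internal start: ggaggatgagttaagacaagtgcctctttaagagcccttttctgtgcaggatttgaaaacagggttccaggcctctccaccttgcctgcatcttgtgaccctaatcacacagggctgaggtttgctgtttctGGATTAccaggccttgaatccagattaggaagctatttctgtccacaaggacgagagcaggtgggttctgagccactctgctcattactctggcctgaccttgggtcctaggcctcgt
Arl3: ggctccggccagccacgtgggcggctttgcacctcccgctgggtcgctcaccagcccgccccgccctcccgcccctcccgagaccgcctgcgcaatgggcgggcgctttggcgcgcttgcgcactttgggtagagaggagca
The gene-start window of Unc119 and the printed Arl3 window hold no GGATTA. Nor do the further internal Unc119 window, chr11:78346460-78346709, or the windows of Pde6d and Rpgr, none of which is printed. Of the 6 members, 5 matched the table, all but Reep6. Among all 32851 windows of this length in the table, 6.25% hold the motif on either strand. A second motif was the half-site of MAF-family factors such as NRL, TGCTGA. Searched on both strands, it occurs in 16.1% of all windows, once in the Aipl1 window and once in the unprinted internal window of Unc119, and not in its printed windows. A match is a string of letters and not a bound site, and a window without one says only that these letters are not in it.

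Over whole frames, Aipl1 (ENSMUSG00000040554, chr11:72028717-72042460) was counted with 24518 UMIs in 3187 spots, 69.2% of all spots. Its level was 6496, 5587, 9177 and 6844 CPM in frames 1 to 4. Unc119 (ENSMUSG00000002058, chr11:78343495-78349164) had 2192 UMIs and stood at 629.5, 552, 622 and 724 CPM. Aipl1 thus varied more between frames than Unc119 did, with frame 3 highest for Aipl1 and frame 4 for Unc119. Pde6d (ENSMUSG00000026239, chr1:86543012-86582785) had 402 UMIs, at 114, 117, 124 and 96.4 CPM. Arl3 (ENSMUSG00000025035, chr19:46531109-46573182) had 3445 UMIs, at 854, 923, 1056 and 1129 CPM. Reep6 (ENSMUSG00000035504, chr10:80329997-80336441) had 1597 UMIs, at 432, 435, 469 and 491 CPM. Arl3 and Reep6 were highest in frame 4, where Pde6d was lowest. Rpgr (ENSMUSG00000031174, chrX:10158216-10216795) had only 28 UMIs in all, in 0.500% of spots, at 12.3, 8.44, 4.52 and 5.93 CPM. All loci are on GRCm38.p6. The Reep6 locus overlaps a long noncoding RNA, Gm51809, by 2727 bases, and the count matrices hold no gene of that symbol. The Pde6d locus overlaps Cops7b, which had 26 UMIs, by 140 bases. The part of reads from these overlaps in the members' counts was not tested.

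The first question was which members are higher where photoreceptor markers dominate than in the inner retina. 5 of the 6 members passed the filter on low counts, and all 5 were higher in the photoreceptor region, by 3.38-fold for Arl3 to 20.7-fold for Reep6. In this comparison edgeR's quasi-likelihood test called 26.3% of 3643 tested genes higher and 29.4% lower, 55.7% in all. The median log2 fold change of all tested genes was -0.01. Rpgr had too few UMIs to be tested. The sizes depend on how regions were drawn. With regions taken from Leiden clusters of spots the log2 differences were 2.54 for Reep6, 2.19 for Unc119, 2.13 for Aipl1 and 1.49 for Pde6d, and with a stricter placement of spots (residual of at least 4) Reep6 reached 5.41. In bulk sums of spots, fewer cells of a type and less RNA per cell cannot be told apart.

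Aipl1, the co-chaperone of rod phosphodiesterase assembly, measured 12974, 12002, 16469 and 13835 CPM in the photoreceptor region of frames 1 to 4, against 1986, 1206, 3838 and 1410.0 CPM in the inner retina. Frame 3 was the highest on both sides, and the sides did not overlap. The difference was 2.99 on the log2 scale (SE 0.19), or 7.93-fold, with an adjusted p of 4.3e-08 by edgeR's quasi-likelihood test with Benjamini-Hochberg adjustment, and it was higher in 4 of 4 frames. In the inner retina of frame 3 the photoreceptor markers also summed to more than elsewhere, at 6556 CPM against 4243, 3206 and 3146 CPM in frames 1, 2 and 4. The part of that in the Aipl1 level of frame 3 was not tested. Without frame 3 the difference was 3.28.

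Unc119, the acyl-binding chaperone that carries transducin, measured 1490.3, 1329, 1287 and 1608 CPM in the photoreceptor region, against 161, 97.2, 137 and 134 CPM in the inner retina. The lowest photoreceptor value lay far above the highest inner retinal one. The difference was 3.58 on the log2 scale (SE 0.16), with an adjusted p of 5.5e-13 in the same test. Pde6d, the prenyl-binding chaperone first purified with rod phosphodiesterase, measured 250.4, 217, 225 and 218 CPM in the photoreceptor region, against 49.5, 60.8, 59.5 and 26.7 CPM in the inner retina. The inner retinal value of frame 4 was the low one and no value overlapped. Its difference was 2.31 (SE 0.27), 4.97-fold, with an adjusted p of 4.2e-07, from 235 UMIs in the photoreceptor region and 50 in the inner retina.

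Arl3, the GTPase that unloads both chaperones, measured 1457, 1606, 1738 and 1918 CPM in the photoreceptor region, against 471, 544, 659 and 513 CPM in the inner retina. Every photoreceptor value exceeded every inner retinal value, although the inner retina kept about 32.7% of the photoreceptor level on average. The difference was 1.76 (SE 0.13), 3.38-fold, with an adjusted p of 7.1e-10. Reep6, the rod protein of the endoplasmic reticulum, measured 1162, 1149.6, 1014 and 1070.3 CPM in the photoreceptor region, against 53.7, 39.5, 77.8 and 69.4 CPM in the inner retina. Its difference was 4.37 (SE 0.19), 20.7-fold, with an adjusted p of 6.9e-13, and it ranked 12 among the 3643 log2 fold changes. The sides again did not overlap in any frame.

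**Figure D1:**
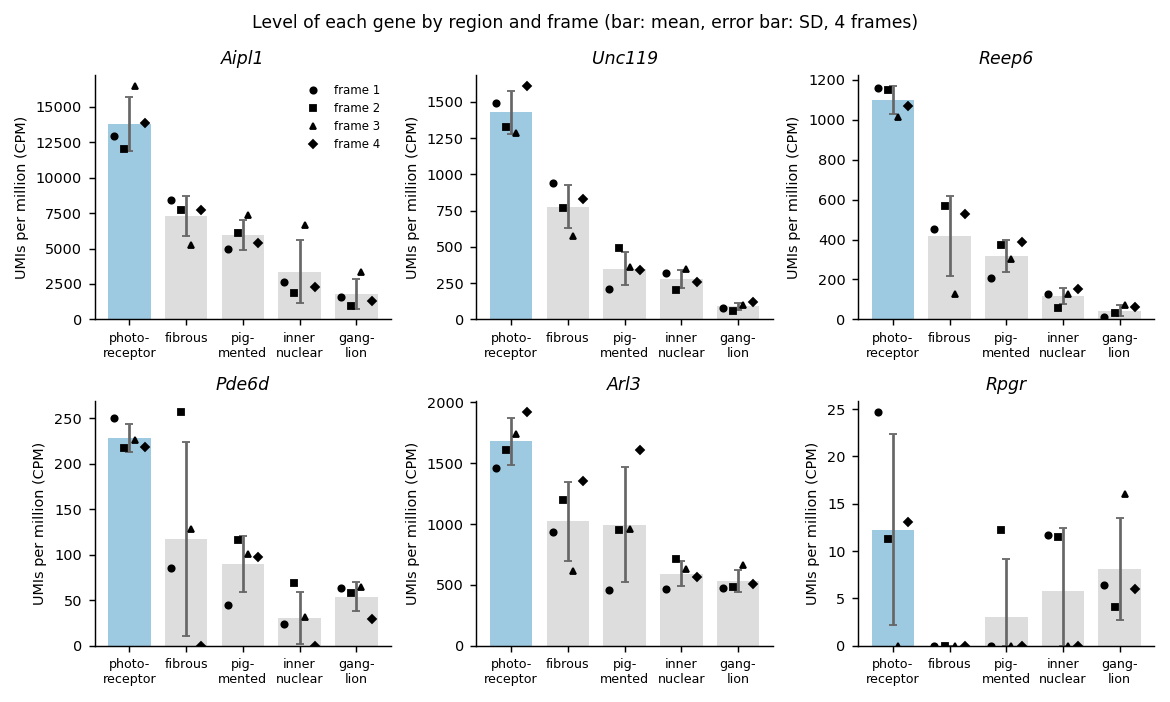
Level of each member in CPM (linear axis from 0, a separate scale for each gene) in the 5 larger regions, with bars for the mean, error bars for the SD and 1 symbol per frame. For Aipl1 the photoreceptor symbols lie between 12002 and 16469 CPM, and frame 3 of the inner nuclear region, at 6686 CPM, stands apart from the other frames of that region.

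Rpgr, the cilium GTPase regulator, was at 24.6, 11.2, 0 and 13.1 CPM in the photoreceptor region, against 8.26, 6.08, 13.7 and 5.34 CPM in the inner retina. The ranges overlap and rest on 12 and 8 UMIs. The ratio of the pooled levels was 1.42, with a 95% interval of 0.534 to 4.00 that covers counting error only. A difference between these regions was not detectable at this depth. In the fibrous region Rpgr had 0 UMIs, where a 95% counting interval reaches 32.1 CPM and 3 UMIs over that region would be 26.1 CPM.

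The second question set the photoreceptor region against the outer coat, which lies outside the neural retina. The 5 tested members were again higher in the photoreceptor region, against 16.5% of 3020 tested genes called higher and 19.0% called lower (35.5% in all), but by smaller amounts of 1.69-fold for Arl3 to 3.10-fold for Reep6. The median of all tested genes was 0.05 on the log2 scale. In the outer coat Aipl1 stood at 6164, 6372, 6959 and 6300.3 CPM, close together in all frames and below every photoreceptor value given above. The photoreceptor region was 1.04 higher on the log2 scale (SE 0.09), 2.06-fold, with an adjusted p of 2.7e-07 by edgeR's quasi-likelihood test. Unc119 stood at 459, 542, 404 and 532 CPM in the coat, below all its photoreceptor values. Its difference was 1.48 (SE 0.14), 2.79-fold, with an adjusted p of 7.8e-07. Reep6 stood at 293, 407, 265 and 444 CPM in the coat and was 3.10-fold higher in the photoreceptor region (log2 1.63, SE 0.16, adjusted p 8.2e-07), with no overlap.

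Both broad members that could be tested spread widely over frames in the coat. Pde6d stood there at 58.6, 141, 106 and 59.2 CPM, from 52 UMIs, and its photoreceptor level was 1.12 higher on the log2 scale (SE 0.30, 2.18-fold, edgeR adjusted p 0.0086). Without frame 1 its difference was 0.90 with an edgeR adjusted p of 0.0644. With regions from Leiden clusters it was 1.00 with an edgeR adjusted p of 0.0543, so the call was lost in both settings. Arl3 stood at 625, 994, 888 and 1509 CPM in the coat, and frame 4 of the coat passed the photoreceptor value of frame 1, so the ranges overlap. Within frames the photoreceptor region was higher by 0.76 on the log2 scale (SE 0.13, 1.69-fold, edgeR adjusted p 3.1e-04). Rpgr had 12 UMIs in the photoreceptor region and 2 in the coat, where it was at 0, 10.0, 0 and 0 CPM, and was not tested.

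The third question was whether the members differ between the outer coat and the inner retina, both outside the photoreceptor region. Aipl1, Unc119, Reep6 and Arl3 were higher in the coat, against 18.6% of 3044 genes called higher and 20.4% called lower (39.0% in all), with a median of -0.05 over all tested genes. From the per-frame values above, the coat was higher by 1.90 on the log2 scale for Aipl1 (SE 0.21, 3.73-fold, edgeR adjusted p 4.0e-05) and by 2.04 for Unc119 (SE 0.26, 4.11-fold, edgeR adjusted p 8e-06). Reep6 was 6.52-fold higher (log2 2.71, SE 0.33, edgeR adjusted p 5e-06). For these 3 genes no coat value overlapped an inner retinal one, and how common that is among all genes is not given here. Arl3 was 1.92-fold higher (log2 0.94, SE 0.18, edgeR adjusted p 0.000445), with ranges that overlap. Pde6d differed by 1.04 (SE 0.41) with an edgeR adjusted p of 0.0534 and did not pass. Rpgr, with 2 UMIs in the coat and 8 in the inner retina, was not tested. The photoreceptor markers moved the same way, at a mean of 26.6% of their photoreceptor level in the coat and 6.53% in the inner retina, and their part in these differences was not tested. With regions taken from clusters of spots, which gave no fibrous region, Aipl1 alone of these 4 members kept its call, at 0.95. With the stricter placement Reep6 differed by 3.91.

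Within the inner retina, the ganglion region was set against the inner nuclear region. Here edgeR called 4.5% of 2022 genes higher and 5.49% lower (9.99% in all), with a median of 0.02 over all tested genes, and 2 of the 3 tested members were lower in the ganglion region. Aipl1 measured 1612, 968, 3352 and 1306 CPM in the ganglion region, against 2673, 1865, 6686 and 2299 CPM in the inner nuclear region. It was lower in 4 of 4 frames although the ranges overlap, and frame 3 was the highest on both sides. The log2 difference was -0.93 (SE 0.16), with an edgeR adjusted p of 1.9e-04, and without the pairing by frame the adjusted p was 0.389. Without the filter on low counts the difference was -0.41 (adjusted p 0.752), and with regions from Leiden clusters -2.47. Unc119 measured 76.5, 57.9, 102 and 119 CPM in the ganglion region, against 317, 206, 345 and 255 CPM in the inner nuclear region, with no overlap. Its log2 difference was -1.77 (SE 0.39, edgeR adjusted p 0.0023), and without frame 1 the adjusted p was 0.0761. It was -1.27 without the filter on low counts (adjusted p 0.202) and -3.04 with regions from Leiden clusters.

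Arl3 measured 471, 484, 664 and 507 CPM in the ganglion region, against 469, 709.5, 628 and 562 CPM in the inner nuclear region. Its ranges overlapped and the difference of -0.22 (SE 0.26) did not pass (edgeR adjusted p 0.665). It was 0.27 without the filter and -0.91 with Leiden clusters, where it passed. Reep6, Pde6d and Rpgr were below the filter on low counts. Reep6 had 33 UMIs in the ganglion region and 23 in the inner nuclear region, Pde6d had 41 and 9, and Rpgr 6 and 2. The photoreceptor markers were also lower in the ganglion region, at 2854, 2325, 5120 and 2583 CPM, against 6799, 5642, 14974 and 7969 CPM in the inner nuclear region, and their part was not tested.

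Ordered by mean level over the 5 larger regions, Aipl1, Unc119, Reep6 and Arl3 had the same order of photoreceptor, fibrous, pigmented, inner nuclear and ganglion. For each of these 4 genes the photoreceptor range did not overlap the fibrous one. The share of all genes without such overlap is not given here, so this does not set the 4 genes apart. For Aipl1 every later pair of neighbours overlapped. Fibrous and pigmented levels of Unc119 did not overlap, at 578 to 937 CPM and 208 to 494 CPM, whereas those of Reep6, at 128 to 569 CPM and 208 to 390.0 CPM, did. For Pde6d and Rpgr all neighbours in the order overlapped. In the 70 spots of the small muscle region Aipl1 still stood at 8382, 4610.5, 9607 and 4949.8 CPM, from 167 UMIs. In the 120 myelin spots, which frame 1 lacked, it stood at 905, 1868 and 1892 CPM in frames 2 to 4, from 83 UMIs. Muscle and myelin levels of Aipl1 did not overlap, and how common that is among all genes is not given here. Unc119 had 12 UMIs in the muscle region and 1 in the myelin region. The photoreceptor markers also differed, at 8313 to 27515 CPM in the muscle region and 905 to 3431 CPM in the myelin region. Their part in these levels was not tested.

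Regions leave many spots out, so spots with at least 100 UMIs were also ordered within each frame by the share of their UMIs in the photoreceptor markers and divided into quintiles, 5 groups of 850 to 853 spots. The median marker share of the quintiles ran 0, 0.446, 1.51, 3.72 and 6.87%. Aipl1 averaged 1264 ± 379.7, 2348 ± 1027, 6052 ± 1853, 11822 ± 1591 and 13798 ± 1947 CPM from the lowest to the highest quintile (SD, n = 4 frames). It had thus reached 85.9 ± 7.08% of its highest level in the quintile next below. Unc119 averaged 60.7 ± 13.1, 158 ± 28.9, 442 ± 124, 944 ± 136 and 1504 ± 196 CPM and had reached 62.7% there. Reep6 averaged 32.3 ± 8.18, 66.4 ± 35.1, 307 ± 90.7, 608 ± 58.1 and 1196 ± 62.6 CPM and had reached 50.9%. A list of 16 other photoreceptor genes, used as a benchmark, was summed in the same quintiles and had reached 62.0%, close to Unc119. Of the members taken as broad, Pde6d had reached 63.3 ± 15.1%, also close to the benchmark, and Arl3 76.3 ± 13.1%.

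Pde6d averaged 42.4 ± 23.1, 47.2 ± 2.07, 62.9 ± 20.6, 151 ± 25.6 and 243 ± 24.1 CPM over the quintiles. Arl3 averaged 481 ± 59.1, 548 ± 66.8, 844 ± 221, 1319.5 ± 284 and 1734 ± 218 CPM. In the lowest quintile Arl3 kept 27.9 ± 3.29% of its highest level and Pde6d 17.8 ± 10.9%, against 9.07 ± 2.15% for Aipl1, 4.12 ± 1.21% for Unc119 and 2.72 ± 0.740% for Reep6. The photoreceptor benchmark stood there at 3.28 ± 0.391%, so Aipl1 kept a larger percentage than the benchmark and Reep6 overlapped it within the SDs. A list of 20 genes taken as broadly expressed ran the opposite way when summed, at 189% of its highest-quintile level in the lowest quintile. Gene by gene most did not. Of its 17 tested genes 1 was higher in the highest quintile, 6 were lower and 10 did not pass, with a median log2 difference of -0.06. Rpgr averaged 4.48 to 10.1 CPM in the quintiles with no order.

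Between the highest and the lowest quintile all 5 tested members were higher, against 26.7% of 3077 genes called higher and 30.2% lower (57.0% in all), with a median of -0.02 over all tested genes. The difference was 5.30 on the log2 scale for Reep6 (SE 0.21, 39.4-fold, edgeR adjusted p 6.2e-17), 4.70 for Unc119 (SE 0.18, 26.0-fold, edgeR adjusted p 6.2e-17) and 3.59 for Aipl1 (SE 0.12, edgeR adjusted p 4.7e-18). Pde6d, at 2.59 (SE 0.32, 6.01-fold, edgeR adjusted p 1.6e-07), and Arl3, at 1.95 (SE 0.13, 3.86-fold, edgeR adjusted p 1.8e-12), differed less. These quintiles share their spots with the regions and are no independent repeat of the region comparisons.

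**Figure D2:**
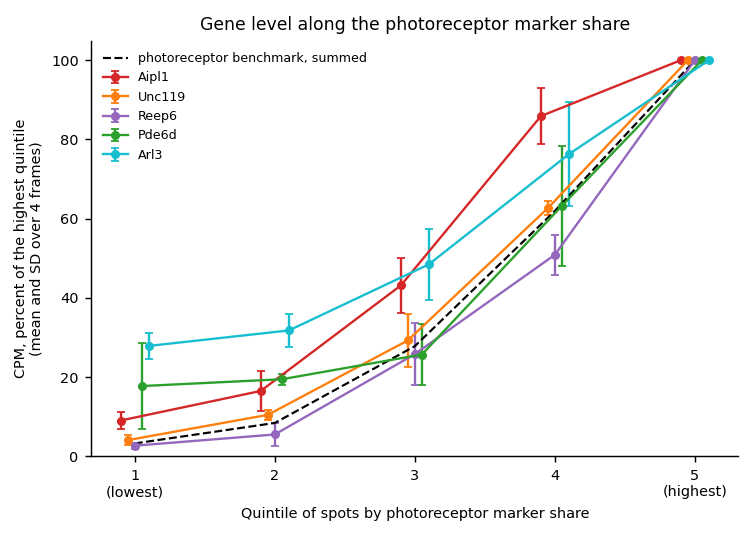
CPM of the 5 better counted members as a percentage of the level in the highest quintile (vertical axis), over quintiles of spots by photoreceptor marker share (horizontal axis), as mean and SD of 4 frames, with the summed photoreceptor benchmark as a dashed line. In the lowest quintile Arl3 stands at 27.9%, Aipl1 at 9.07% and Reep6 at 2.72%.

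The members taken as restricted were then set beside those taken as broad. In photoreceptor minus inner retina the log2 difference of each restricted member exceeded that of Arl3 in 4 of 4 frames, by 2.44 ± 0.50 for Reep6, 1.76 ± 0.26 for Unc119 and 1.24 ± 0.45 for Aipl1 (SD, n = 4). Against Pde6d the excess was 1.97 ± 0.74 for Reep6, 1.29 ± 0.50 for Unc119 and 0.77 ± 0.57 for Aipl1, also in 4 of 4 frames. No test was made of these excesses, since the 6 members were chosen with earlier results of these data known. In photoreceptor minus outer coat the split was less clear. There Aipl1, at 1.04, lay below Pde6d, at 1.12, while Unc119 (1.48) and Reep6 (1.63) lay above it. All 3 restricted members lay above Arl3, at 0.76. The summed UMIs of the restricted members over those of the broad members were 9.02, 7.89, 9.56 and 7.68 in the photoreceptor region, against 4.16, 2.20, 5.54 and 2.96 in the inner retina. The ratio was higher in the photoreceptor region of every frame, by 1.28 ± 0.45 on the log2 scale, and the sides did not overlap. In the outer coat it was 10.1, 6.39, 7.67 and 4.64, which overlaps the photoreceptor values and exceeds them in frame 1. Most of these UMIs are Aipl1. Without it the ratio was 1.33 ± 0.156 in the photoreceptor region, against 0.806 ± 0.215 in the outer coat and 0.324 ± 0.082 in the inner retina.

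Both broad members tested still differed in the direction of the photoreceptor genes. The photoreceptor benchmark had 16 of 16 genes higher in photoreceptor minus inner retina, with a median log2 difference of 3.96. The broad benchmark had 2 of 17 tested genes higher and 6 lower, with a median of -0.11. Its 3 genes with the lowest p were lower in the photoreceptor region, Ywhaz by a log2 difference of -1.38, Rab7 of -1.63 and Ppia of -1.35. Arl3, Pde6d, Aipl1 and Unc119, at 1.76, 2.31, 2.99 and 3.58, lay between those medians, and Reep6 above that of the photoreceptor benchmark. Arl3 and Pde6d, though taken as broad, lay above the highest tested gene of the broad benchmark, at 1.07. Arl3, Pde6d and Aipl1 lay below the lowest gene of the photoreceptor benchmark, at 3.33. The members' own median was 2.99.

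**Figure D3:**
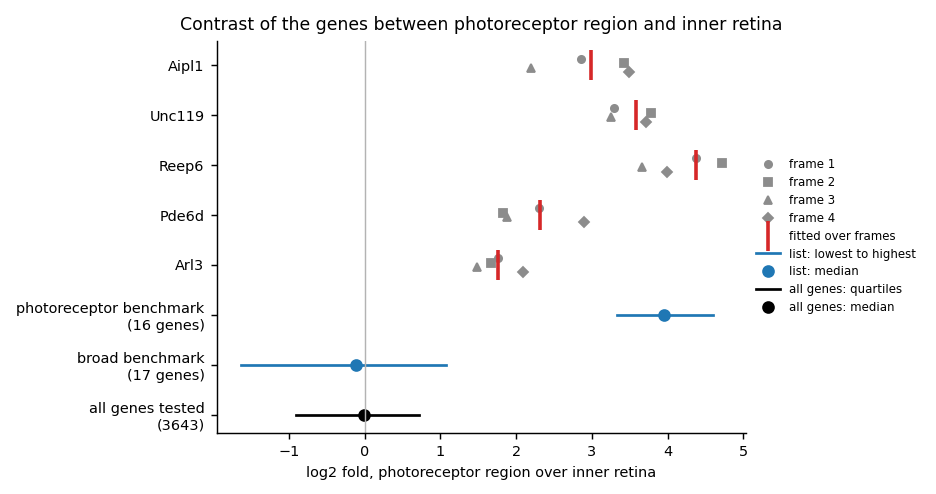
Log2 fold of the photoreceptor region over the inner retina (horizontal axis) for the 5 tested members, with grey symbols for frames and red bars for the fitted value, above the median and lowest to highest value of both benchmark lists and the median and quartiles of all 3643 tested genes. Reep6 is at 4.37 and Arl3 at 1.76, with the median of the photoreceptor benchmark at 3.96 and that of the broad benchmark at -0.11.

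To see whether members fall off between regions as fast as other photoreceptor genes, their UMIs were divided by those of the photoreceptor benchmark. Aipl1 had 34.7, 34.0, 50.3 and 43.4 UMIs per 100 benchmark UMIs in the photoreceptor region, against 88.2, 72.7, 102 and 122 in the ganglion region. All ganglion values exceeded all photoreceptor values. In the inner nuclear region it had 63.0, 52.6, 87.7 and 60.0, also above every photoreceptor value. Reep6 had 3.21 ± 0.126 in the photoreceptor region, 3.35 ± 1.35 in the fibrous, 2.95 ± 0.406 in the pigmented, 2.57 ± 1.16 in the inner nuclear and 2.71 ± 2.05 in the ganglion region, so that the means lay within the wide SDs of the other regions. In the inner retina as a whole it had 2.00, 2.06, 1.98 and 5.10, below every photoreceptor value in frames 1 to 3 and above them in frame 4, from 56 UMIs. Unc119 had 4.18 ± 0.583 in the photoreceptor region and 5.68 ± 3.66 in the ganglion region, which overlap. In the fibrous region it had 6.19, 5.51, 7.29 and 7.38, above every photoreceptor value. It had 6.11 ± 1.26 in the inner nuclear region, higher than in the photoreceptor region in every frame. In the pigmented region it had 3.21 ± 0.503, lower in every frame. Arl3 had 4.95 ± 0.919 in the photoreceptor region, against 13.5 ± 5.08 in the inner nuclear region and 25.8, 36.3, 20.1 and 47.2 in frames 1 to 4 of the ganglion region. Pde6d had 0.665 ± 0.034 in the photoreceptor region, against 3.14 ± 1.02 in the ganglion region. Relative to the benchmark, Aipl1, Arl3 and Pde6d thus stood higher in the ganglion than in the photoreceptor region in every frame. For Reep6 and Unc119 no difference between ganglion and photoreceptor regions was resolved at these UMI counts.

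**Figure D4:**
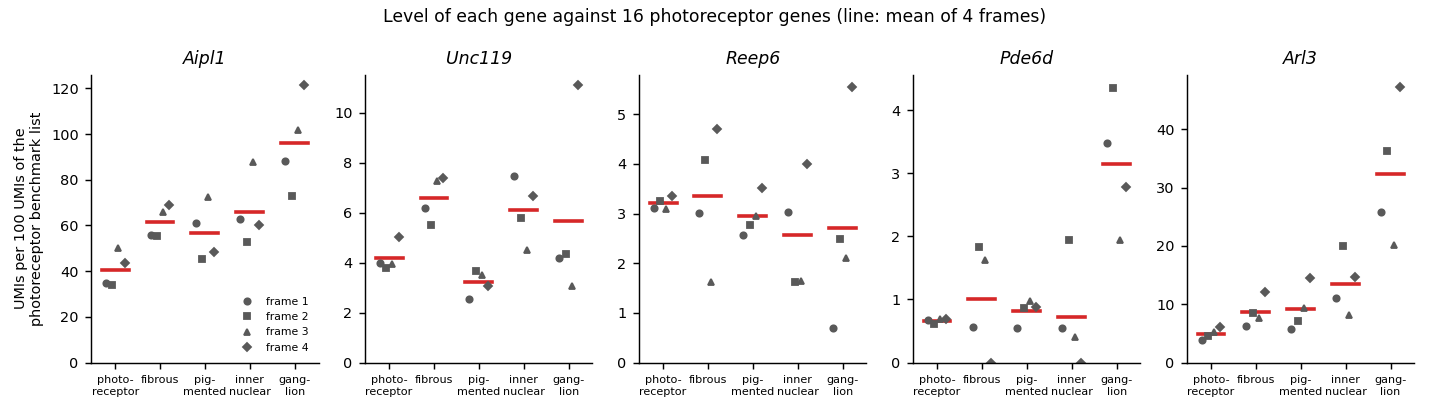
UMIs of each of 5 members per 100 UMIs of the photoreceptor benchmark (vertical axis, a separate scale for each gene) by region, with 1 symbol per frame and a red line for the mean. Aipl1 has 40.6 ± 7.74 in the photoreceptor region and 96.0 ± 20.8 in the ganglion region, whereas Reep6 has 3.21 ± 0.126 in the photoreceptor region and 2.71 ± 2.05 in the ganglion region.

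The partners and paralogs of the members came from lists that were used whole and not trimmed by value. These lists were chosen with earlier results of these data known. Among 10 partners of lipid-binding chaperones and cargo release, 3 could be tested in photoreceptor minus inner retina, of which 2 were higher and none lower, with a median of 2.03. Arl6, a GTPase that recruits the BBSome to membranes, was 2.90 higher on the log2 scale (SE 0.39, edgeR adjusted p 2.4e-06), at 140.2 ± 45.9 CPM in the photoreceptor region and 21.4 ± 13.6 CPM in the inner retina. Rab28, a prenylated GTPase carried by PDE6D, was 2.03 higher (SE 0.35, edgeR adjusted p 4.9e-05). Arl2bp, an effector of ARL2, had 73.7 CPM in the photoreceptor region and 59.9 CPM in the inner retina and did not pass (edgeR adjusted p 0.23). Other relatives and partners on this list were too sparse to test. Unc119b, the paralog of Unc119, had 11 UMIs in the photoreceptor region and 8 in the inner retina. Arl2, which also acts on PDE6D and UNC119, had 25 and 55, and Rp2, the GTPase activator of ARL3, had 14 and 16. Arl13b, the exchange factor of ARL3 in cilia, had 18 in the photoreceptor region and 3 in the inner retina.

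Paralogs of Reep6 and co-factors of the chaperones, among them heat shock proteins that work with AIPL1, formed a list of 10 genes, of which 6 were tested, 1 was higher and 4 were lower, with a median of -1.25. Reep5, the widely expressed paralog of Reep6, had 21.9 CPM in the photoreceptor region and 156 CPM in the inner retina, a log2 difference of -2.71 (SE 0.33, edgeR adjusted p 8.7e-07). Reep1, a paralog best known in neurons, had 3 UMIs in the photoreceptor region and 70 in the inner retina, a ratio of pooled levels of 0.0406 with a 95% counting interval of 0.00817 to 0.124 (edgeR adjusted p 1.7e-05). Reep6 and these tested paralogs thus differed in opposite directions between the same regions. Of the untested paralogs, Reep2 had 7 and 48 UMIs, Reep3 20 and 4, and Reep4 0 and 10, in the photoreceptor region and the inner retina.

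The cytosolic HSP90 genes also parted. Hsp90aa1 had 1235 CPM in the photoreceptor region and 488 CPM in the inner retina, a log2 difference of 1.47 (SE 0.13, edgeR adjusted p 1.6e-08). Hsp90ab1 had 228 CPM in the photoreceptor region and 929.7 CPM in the inner retina, a log2 difference of -1.88 (SE 0.15, edgeR adjusted p 1.5e-09).

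**Figure D5:**
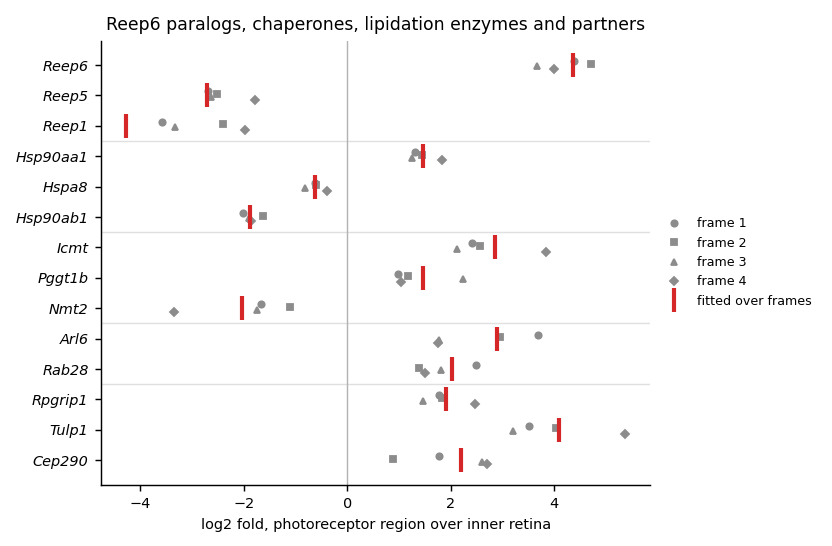
Log2 fold of the photoreceptor region over the inner retina (horizontal axis) for Reep6 and 13 genes of the lists, with grey symbols for frames and red bars for the fitted value. Hsp90aa1 at 1.47 and Hsp90ab1 at -1.88 lie on opposite sides of 0, as do Reep6 at 4.37 and Reep5 at -2.71.

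The cargo the members serve was also counted. All 10 tested genes of the 11 listed for lipidated phototransduction proteins were higher in the photoreceptor region than in the inner retina, with a median of 3.67. Most of them, all those named below included, are also in the photoreceptor benchmark, so the lists are largely the same genes. Pde6a, a catalytic subunit of rod phosphodiesterase and a client of AIPL1 and PDE6D, was 4.60 higher on the log2 scale. Gngt1, the prenylated transducin gamma subunit, was 4.58 higher (edgeR adjusted p 1.8e-14), and Gnat1, the transducin alpha subunit carried by UNC119, 4.37 higher (edgeR adjusted p 2.5e-14). The difference of Reep6, 4.37, was close to those of these named cargo genes, which had the lowest p of the list. The 10 tested cargo genes ranged from 3.11 to 4.60. Unc119 (3.58) lay within that range, near the median, and Aipl1 (2.99) below it.

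Of 10 lipidation enzymes 4 were tested, with 2 higher, 1 lower and a median of 0.58. Icmt, which methylates prenylated proteins, was 2.85 higher (SE 0.29, edgeR adjusted p 7.0e-08), at 264 CPM in the photoreceptor region and 39.0 CPM in the inner retina. Pggt1b, a subunit of the enzyme that adds geranylgeranyl groups, was 1.47 higher (SE 0.35, edgeR adjusted p 0.0014). Nmt2, an N-myristoyltransferase, was lower, with a log2 difference of -2.03 (SE 0.38, edgeR adjusted p 1.4e-04).

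Genes of the connecting cilium and the RPGR complex numbered 12, of which 5 were tested and 3 were higher, with a median of 1.91. Rpgrip1, which anchors RPGR at the connecting cilium, had 451 CPM in the photoreceptor region and 132 CPM in the inner retina, a log2 difference of 1.91 (SE 0.19, edgeR adjusted p 7.3e-08). Tulp1, needed for protein transport to the outer segment, differed by 4.09 (SE 0.25, edgeR adjusted p 7.1e-11) and Cep290, a protein of the ciliary gate, by 2.20 (SE 0.48, edgeR adjusted p 5.6e-04). Rpgr itself was too sparse to set beside them. Of 26 ciliary transport genes 5 were tested and 3 were higher, with a median of 1.35. They were Ift81, a train subunit of intraflagellar transport (1.35, edgeR adjusted p 5.4e-04), the motor subunit Kif3b (1.40, edgeR adjusted p 8.2e-04) and the BBSome subunit Ttc8 (1.89, edgeR adjusted p 9.9e-04).

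Genes whose levels ran most like each member were sought by Pearson correlation of log2(CPM + 10) over 20 points, the 5 larger regions in 4 frames, among 4802 genes with at least 100 UMIs. The points share frames and sections, so the correlations are descriptions. For Aipl1 they were Rcvrn (0.970), Guca1b (0.969) and Rp1l1 (0.955), for Unc119 Hk2 (0.951), Gnat1 (0.947) and Reep6 (0.933), and for Reep6 Pde6g (0.965), Gnat1 (0.964) and Gngt1 (0.942). For Arl3 they were Ybx3 (0.897), Phlpp2 (0.886) and Ankrd33b (0.883), and for Pde6d Trafd1 (0.913), Zfyve28 (0.895) and Ndufb11 (0.870). Among the members, Aipl1, Unc119 and Reep6 correlated with each other at 0.915 to 0.933. Arl3, taken as broad, correlated with them at 0.818, 0.815 and 0.873. Pde6d, the sparsest of the 5, correlated with the others at 0.446 to 0.528.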

How the data were processed

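The authors deposited counts, as whole numbers of UMIs per gene and spot, from 4 Visium libraries. Per the file headers the software was Space Ranger 2.0.0, with mm10 as genome per the submitters' processing notes. All spots called over tissue were used. A spot took the marker class with the largest residual, if that was at least 2. Region placement and tests used the same spots. UMIs were summed per frame and region, and a frame needed 10 spots on both sides. Tests used edgeR 4.0.16 in R 4.3.3 (glmQLFit, glmQLFTest, TMM, filterByExpr with a minimum count of 10), with the frame as block and Benjamini-Hochberg adjustment over all genes tested at a limit of 0.05. Marker genes entered neither library sizes nor tests. Frames pair the regions because both come from the same sections, and same-frame deviations correlated at 0.0437 to 0.143. Intervals and floors cover counting error only. Alternatives used DESeq2 1.42.0, and scanpy 1.11.5 in Python 3.11.15 for Leiden clusters. The edgeR fit was tested on simulated data. All 6 members enter every comparison. From each list the text names, as far as reported here, the 3 genes with the lowest p in photoreceptor minus inner retina, plus fixed paralogs and partners, and for each member with 100 UMIs or more the 3 genes most like it. The members, markers and lists were chosen with earlier results of these data known. Frames are not compared, since no label gives them a treatment group. A paralog and an alternative set of region markers are not reported here.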

Additional observations from a re-analysis of the deposited data

Results flagged for a closer look

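In the inner nuclear region the Aipl1 level of frame 3 was 6686 CPM, far from the 2673, 1865 and 2299 CPM of frames 1, 2 and 4, by Dixon's criterion for a single distant value among 4. It was the only one of 36 groups of 4 frames to pass that criterion, which chance passes about 1 time in 20. The photoreceptor markers of the same spots summed to 14974 CPM in frame 3 and to 6799, 5642 and 7969 CPM in frames 1, 2 and 4, and their part in the Aipl1 value was not tested.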

How the results depend on the processing

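In photoreceptor minus inner retina, and between the highest and lowest quintile, Aipl1, Unc119, Reep6, Pde6d and Arl3 kept direction and call under every alternative reported here, although sizes moved. In photoreceptor minus inner retina, Leiden clusters gave 2.54 for Reep6, 2.19 for Unc119, 2.13 for Aipl1 and 1.49 for Pde6d, and a residual of 4 gave 5.41 for Reep6. With regions taken from Leiden clusters, genes called numbered 605 in photoreceptor minus outer coat (1073 as reported), 725 in outer coat minus inner retina (1186) and 699 in ganglion minus inner nuclear (202). There the coat, which had no fibrous cluster, minus inner retina gave 0.48 for Unc119, 0.80 for Reep6 and 0.45 for Arl3, none past the limit, photoreceptor minus coat gave 1.00 for Pde6d (adjusted p 0.0543), and ganglion minus inner nuclear gave -0.91 for Arl3, which passed, -2.47 for Aipl1 and -3.04 for Unc119. Pde6d in outer coat minus inner retina passed without a replicate block (1.17) and with only spots of at least 300 UMIs (1.10). In ganglion minus inner nuclear, dropping the filter on low counts gave -0.41 for Aipl1 and -1.27 for Unc119, neither past the limit, and turned Arl3 to 0.27, which did not pass either way. Without the replicate block Aipl1 gave -0.95 and lost its call there, and apart from this and Pde6d above the block changed no member's call. Dropping the filter raised genes called between quintiles to 2974 (1753 as reported), from 15809 genes tested in place of 3077. A stricter residual of 4 moved the photoreceptor level of Reep6 to 1197 CPM and of Pde6d to 259 CPM, and left too few frames for ganglion minus inner nuclear. Scaling by library totals without TMM moved the share of higher among calls in ganglion minus inner nuclear to 56.2% in place of 45.1%, and the median of all genes to 0.15 in photoreceptor minus coat and -0.18 in coat minus inner retina. Leaving out each frame, genes called in photoreceptor minus coat ranged 713 (without frame 2) to 1246 and Pde6d 0.90 to 1.48. Genes called in ganglion minus inner nuclear ranged 114 (without frame 2; 123 without frame 1) to 245, and Unc119 -1.89 to -1.62. The causes were not tested. Depth limits Rpgr, with 28 UMIs, and Pde6d and Reep6 in the inner layers.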

Other observations

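The BBSome is the complex that carries membrane proteins out of cilia, and most of its subunits were too sparse for the test. These values were picked after they had been seen. Bbs5 had 52 UMIs in the photoreceptor region and 8 in the inner retina, a ratio of pooled levels of 6.15. Bbs7 had 56 UMIs in the photoreceptor region and 11 in the inner retina, a ratio of 4.82 with a 95% counting interval of 2.50 to 10.2. Bbs9 had 44 and 6 (ratio 6.94, interval 2.95 to 19.9). Bbs1, Bbs2 and Bbs4 had ratios of 2.84, 3.26 and 2.90. The intervals cover counting error in the pooled spots and not the spread between frames.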
